A study of Mus musculus with 48 samples.

Results

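The aquaporins are channel proteins of the cell membrane, and their transcripts were followed across 5 mouse tissues on Affymetrix expression arrays. The set took in the probe sets whose single gene symbol in the platform annotation was 1 of 10 named aquaporin genes. It came to 13 probe sets for 8 genes, out of 22626 probe sets without the array controls. Aqp1, Aqp2, Aqp5 and Aqp8 had a single probe set each, Aqp4, Aqp7 and Aqp9 had 2 and Aqp3 had 3. Aqp6 and Aqp11 were not analysed here.

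The arrays held RNA from male and female kidney, male and female liver, hypothalamus of both sexes, testis and ovary. Every one of these 8 groups had 3 RNA samples, numbered 1 to 3, with 2 arrays each, so 48 arrays gave 24 RNA samples. Per the labels, the RNA was purchased, each sample was a pool of 10 animals, and it was polyA-selected for kidney, liver, testis and ovary but total RNA for hypothalamus, while another field gives total RNA throughout. No source used here gives strain, age or treatment, and nothing in the labels places the 3 samples of a group in separate pools, so a p-value here measures a spread that may be technical.

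Aquaporins let water follow osmotic gradients across membranes, and the aquaglyceroporins Aqp3, Aqp7 and Aqp9 also pass glycerol. In the kidney, Aqp1 serves water reabsorption in the proximal tubule and descending thin limb, while vasopressin moves Aqp2 to the apical membrane of collecting duct principal cells, whose basolateral membrane holds Aqp3 and Aqp4. Aqp4 is also the water channel of astrocyte endfeet in the brain, Aqp9 takes glycerol into hepatocytes, Aqp7 releases it from adipocytes and is present in sperm, Aqp8 is found in hepatocytes, pancreatic acinar cells and the male germ line, and Aqp5 belongs to secretory epithelia.

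In assembly GRCm38.p6, Aqp1 lies on chromosome 6 (55336299 to 55348555), Aqp8 on chromosome 7 (123462294 to 123468003) and Aqp9 on chromosome 9 (71110659 to 71167849). Aqp2 (99579056 to 99584545) and Aqp5 (99591028 to 99594829) are close neighbours on chromosome 15. Aqp7 (41033074 to 41048237) and Aqp3 (41092724 to 41098183) are both on chromosome 4.

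The 250 bases before the start of the gene are shown for the 3 genes with their highest level in kidney, Aqp1, Aqp2 and Aqp3, and for Aqp8, with its highest level in liver. The sequences are RefSeq's, on GRCm38.p6, written 5′ to 3′ on the strand of the gene. Capitals mark the letters of 4 motifs sought on both strands: TGACGT, the half-site of the cAMP response element, then AGATAA, the motif of GATA factors, then GTTAAT, the half-site of HNF1 factors, and finally TATAAA, the core of the TATA box.
Aqp1, chr6:55336049-55336298, plus strand: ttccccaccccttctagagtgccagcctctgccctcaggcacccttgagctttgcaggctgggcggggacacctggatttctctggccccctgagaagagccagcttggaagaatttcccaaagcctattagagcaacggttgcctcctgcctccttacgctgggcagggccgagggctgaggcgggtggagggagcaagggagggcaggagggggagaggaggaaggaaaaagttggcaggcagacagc
Aqp2, chr15:99578806-99579055, plus strand: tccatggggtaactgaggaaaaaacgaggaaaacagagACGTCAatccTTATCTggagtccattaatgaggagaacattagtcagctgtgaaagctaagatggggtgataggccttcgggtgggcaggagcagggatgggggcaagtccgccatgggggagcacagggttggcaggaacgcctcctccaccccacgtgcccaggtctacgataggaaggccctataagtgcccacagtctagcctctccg
Aqp3, chr4:41098184-41098433, minus strand: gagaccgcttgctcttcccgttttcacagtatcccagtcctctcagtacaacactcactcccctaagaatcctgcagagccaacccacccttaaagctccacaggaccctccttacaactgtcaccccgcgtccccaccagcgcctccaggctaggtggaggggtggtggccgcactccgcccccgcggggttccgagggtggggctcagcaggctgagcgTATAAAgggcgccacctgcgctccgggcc
Aqp8, chr7:123462044-123462293, plus strand: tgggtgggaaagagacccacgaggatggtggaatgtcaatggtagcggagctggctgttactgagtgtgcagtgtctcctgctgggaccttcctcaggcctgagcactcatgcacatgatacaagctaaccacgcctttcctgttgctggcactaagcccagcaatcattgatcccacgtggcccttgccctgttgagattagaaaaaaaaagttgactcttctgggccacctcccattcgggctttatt

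The Aqp2 window held the reverse complements of the cAMP half-site, starting 212 bases before the gene, and of the GATA motif, starting 202 bases before it. The Aqp3 window held the TATA letters 29 bases before the gene. None of the 4 motifs was in the Aqp1 or the Aqp8 window. Both Aqp9 windows of the RefSeq table lie before transcript starts inside the gene, and they are not shown. Of all 32851 windows of the same length, 6.47% held the cAMP half-site, 9.99% the GATA motif, 6.43% the HNF1 half-site and 12.4% the TATA box.

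Levels are intensities in array units, after scaling of the arrays to a common trimmed mean, and a level may be set only against that of the same probe set in another group. As a marker of dim signal, the 40th percentile of each array was used, which lay between 106.8 and 198.3. Array medians lay between 163.3 and 276, and the 2 arrays of an RNA sample correlated at 0.9658 to 0.99. Differences are given on the scale of log2(intensity + 48.1), where dim values are compressed. They were tested with limma where the probe set lay above the 40th percentile level in at least 3 RNA samples of the fit, with Benjamini-Hochberg adjusted p under 0.05 as the call. A ratio against a group with no RNA sample above that level is given as a bound, with the dim arrays raised to the level.

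**Figure D1:**
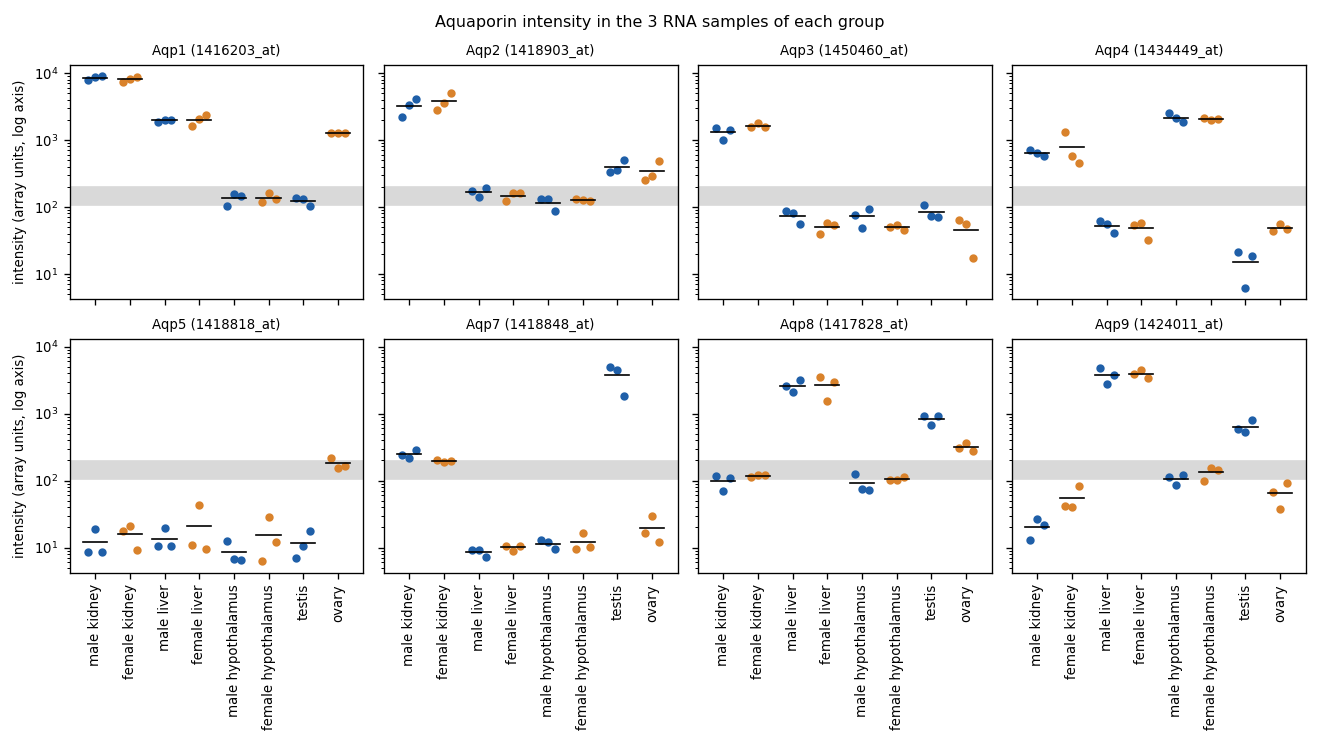
Intensity (log axis, array units) of the brightest probe set of each aquaporin gene in 8 groups; points are the 3 RNA samples in number order, black lines their means, blue male and orange female tissue, and the grey band spans the 40th percentile levels of the arrays. Aqp1, Aqp2 and Aqp3 were highest in kidney, Aqp4 in hypothalamus, Aqp7 in testis, and Aqp8 and Aqp9 in liver, with the 3 testis points of Aqp7 between 1821 and 4883.

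Aqp1, the constitutive water channel of the proximal tubule, was brightest in kidney. Its intensity was 7914, 8609 and 9083 in male kidney samples 1 to 3, against 7429, 8275 and 8615 in female kidney. It was 1844, 2004 and 2020 in male liver, against 1592, 2034 and 2358 in female liver. The kidney and liver values were far apart and the sexes overlapped in both.

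Kidney exceeded liver 4.21-fold for Aqp1, with means of 8321 ± 585.4 in kidney and 1975 ± 251.8 in liver (SD, n = 6 RNA samples each), a log2 difference of 2.06 ± 0.10 (SE, limma adjusted p = 4e-14). The 6 samples of a tissue entered the tissue contrasts as independent, although samples of the same number deviated together between the sexes. Liver in turn exceeded ovary 1.54-fold (log2 0.59 ± 0.12, adjusted p = 0.000292). In the gonads Aqp1 was 135, 133 and 105 in testis, against 1294, 1274 and 1292 in ovary. All testis samples lay below all ovary samples, with a log2 difference of -2.96 ± 0.15 (adjusted p = 2.58e-07). In hypothalamus it stayed between 102 and 162, under the 40th percentile level in every sample, and kidney was at least 48-fold above it (log2 5.52 ± 0.10, adjusted p = 3.35e-22). Hypothalamus and testis, the neighbours at the low end of the order, did not differ beyond their spread (log2 0.09, 95% interval -0.17 to 0.35, adjusted p = 0.547). This depended on the normalization. With arrays centred on their medians, all 11 tested aquaporin probe sets were called in that pair, Aqp1 among them.

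Aqp1 is also a channel of bile duct cells and of many capillary endothelia, and bulk RNA cannot tell fewer cells of a type from less RNA per cell. None of the 4 bile duct markers on the array was above the 40th percentile level in all liver samples, and their sum was 195.2 to 258.9 in male liver and 221.6 to 253.2 in female liver. All 6 endothelial markers were above it in kidney, liver, hypothalamus and ovary. Their sum was 4548 to 6423 over both kidney groups, 2906 to 4216 over both liver groups, 1465 to 1812 over both hypothalamus groups, 895 to 1046 in testis and 3053 to 3660 in ovary. The part of these cells in the Aqp1 levels was not tested.

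Aqp2, the vasopressin-regulated channel of the collecting duct, was likewise highest in kidney. It read 2230, 3326 and 4046 in male kidney samples 1 to 3, against 2769, 3603 and 5015 in female kidney. Sample 1 was lowest and sample 3 highest in both sexes. The gonads came next, with 335, 362 and 501 in testis, against 253, 290 and 482 in ovary. Liver samples ranged from 125 to 194 and hypothalamus samples from 86.2 to 133.

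The kidney mean of Aqp2 was 22-fold that of liver (3498 ± 978.0 in kidney, 159 ± 23.8 in liver, SD, n = 6 each), a log2 difference of 4.06 ± 0.16 (adjusted p = 7.17e-16). Kidney was 8.75-fold above testis (log2 2.98 ± 0.20, adjusted p = 5.73e-12) and 10.2-fold above ovary (log2 3.18 ± 0.20, adjusted p = 5.56e-12). Testis and ovary did not differ beyond their spread (log2 0.21, 95% interval -0.34 to 0.75, adjusted p = 0.462). Nor did liver and hypothalamus (log2 0.29, interval -0.05 to 0.63, adjusted p = 0.114). The latter may depend on the normalization, since 10 of 11 tested aquaporin probe sets were called there with arrays centred on their medians. Testis was above liver by a log2 difference that stood at -1.09 for liver minus testis (adjusted p = 4.39e-05), and ovary above liver likewise, at -0.88 for liver minus ovary (adjusted p = 0.000587).

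Aqp3, the basolateral channel of the principal cell, had 3 probe sets, and all of them were bright in kidney and dim elsewhere. Probe set 1450460_at read 1520, 1014 and 1430 in male kidney, against 1539, 1779 and 1573 in female kidney. Probe set 1422007_at read 789, 626 and 1077 in male kidney, against 944, 779 and 1114 in female kidney. Probe set 1422008_a_at read 282, 202 and 179 in male kidney, against 344, 328 and 228 in female kidney. Outside the kidney no sample of any of the 3 exceeded its array's 40th percentile level. Their pairwise correlations over the 24 RNA samples, which share the kidney contrast, were 0.984 to 0.987.

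Kidney was at least 12.2-fold above liver for Aqp3 by 1450460_at, at least 7.37-fold by 1422007_at and at least 2.16-fold by 1422008_a_at (log2 differences of 3.80 ± 0.14, 3.97 ± 0.10 and 2.55 ± 0.09, adjusted p at most 8.62e-17). These bounds differ because the probe sets differ in brightness, while the level they are set against is shared. Each Aqp3 probe set passed the filter through kidney alone, so the direction of its call was fixed by the filter and nothing is read from the p-values. Between liver, hypothalamus, testis and ovary no Aqp3 probe set was called in any pair tested, testis against ovary being untested. With arrays centred on their medians, all 11 tested aquaporin probe sets were called in hypothalamus against testis, those of Aqp3 among them, though dim in both.

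Aqp4, whose gene is on chromosome 18, was second in kidney and highest in hypothalamus on both of its probe sets. Probe set 1434449_at read 713, 643 and 582 in male kidney, against 1300, 572 and 461 in female kidney. In hypothalamus it read 2516, 2114 and 1848 in males, against 2156, 1968 and 2054 in females. All kidney values lay below all hypothalamus values, and female kidney sample 1 stood far above the other kidney samples. Probe set 1425382_a_at gave 603, 501 and 475 in male kidney against 967, 401 and 329 in female kidney. It gave 1664, 1615 and 1367 in male hypothalamus against 1641, 1443 and 1506 in female hypothalamus.

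Both arrays of female kidney sample 1 were high for Aqp4, at 1352 and 1248 on 1434449_at and at 1025 and 908 on 1425382_a_at. The kidney minus hypothalamus difference of Aqp4 was -1.58 ± 0.16 on 1434449_at and -1.49 ± 0.16 on 1425382_a_at (log2, adjusted p = 8.7e-09 and 1.94e-08). Without that sample it was -1.79 and -1.71. Liver, testis and ovary had no Aqp4 value above the 40th percentile level.

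The hypothalamus was at least 17.5-fold above liver for Aqp4 on 1434449_at and at least 12.8-fold on 1425382_a_at (log2 liver minus hypothalamus of -4.46 ± 0.16 and -3.48 ± 0.16, adjusted p = 3.75e-17 and 3.59e-15). All 6 astrocyte markers were above the 40th percentile level in hypothalamus. Gfap, the astrocyte intermediate filament, averaged 4191 ± 314 in male and 3519 ± 389 in female hypothalamus, against 78 to 159 in the group means of the other tissues. The sum of the astrocyte list is not confined to brain, since Aldh1l1, a folate enzyme of both astrocytes and hepatocytes, was 10997 in male and 11891 in female liver. The difference in RNA preparation named in the labels runs along every contrast with hypothalamus and cannot be told apart from tissue there.

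Aqp5 was near the limit of detection. Ovary samples 1 to 3 read 221, 157 and 167, of which 2 were above the 40th percentile level, while the highest of the samples in other groups was 42.8. Being above that level in fewer than 3 samples, Aqp5 was not tested. The ovary RNA held Ovgp1, the oviductal glycoprotein, at 8673 ± 1235, against group means of 136 to 293 elsewhere, and all 4 oviduct and surface epithelium markers were above the 40th percentile level there. Of these 4 markers, 2 or 3 were above it in all samples of each other group, so the count is not particular to ovary. The part of these epithelia in the Aqp5 level was not tested.

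Aqp7 was a testis transcript on probe set 1418848_at, which read 4883, 4550 and 1821 in testis, against 16.5, 30 and 12.3 in ovary. Testis sample 3 was well below the other testis samples, on both of its arrays (1738 and 1904). In kidney it read 242, 214 and 285 in males, against 205, 191 and 194 in females. No liver or hypothalamus sample was above 16.4.

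Testis was at least 23.6-fold above ovary for Aqp7, with a log2 difference of 5.70 ± 0.33 (adjusted p = 6.12e-07), and 6.15 without testis sample 3. Aqp7 passed the filter of that fit through testis alone, so its direction was fixed by the filter and nothing is read from the p-value. Testis was also 16.9-fold above kidney (log2 kidney minus testis of -3.70 ± 0.19, adjusted p = 5.52e-14). Kidney in turn was at least 1.84-fold above liver (log2 2.22 ± 0.16, adjusted p = 3.07e-11). Liver, hypothalamus and ovary were not called against each other. That may depend on the normalization, since centring arrays on their medians gave 10 aquaporin calls of 11 tested in liver against hypothalamus.

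The sum of the 5 spermatid markers on the array was 78395, 78103 and 59262 in testis samples 1 to 3, so sample 3 was lowest in these too. The sum of the Sertoli and Leydig cell markers was 5894, 5456 and 9996, with sample 3 highest. The part of cell makeup in the low Aqp7 of that sample was not tested. Aqp7 is a channel of adipocytes, and the adipokine Adipoq averaged 5449 ± 926 in ovary, the highest group mean of that gene, where Aqp7 averaged 19.6 ± 9.28. The sum of the 3 adipocyte markers on the array was 9651 to 15240 in ovary and 1998 to 4598 over both kidney groups. It was 542.9 to 2019 in testis, 453.2 to 968.5 over both liver groups and at most 90.51 in hypothalamus. The part of adipocytes in the Aqp7 levels was not tested.

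The other Aqp7 probe set, 1418849_x_at, was designed from the same sequence record and did not follow the first. It read 19.4, 24.3 and 11.9 in testis, against 16.9, 34.4 and 16.8 in ovary, and 43.9 to 75.9 over the kidney samples. Its values were below the 40th percentile level in every sample, and so it was not tested. The correlation of the pair over the 24 RNA samples was 0.332. In the platform's naming, the suffix x marks probe sets with probes that may match other sequences.

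**Figure D2:**
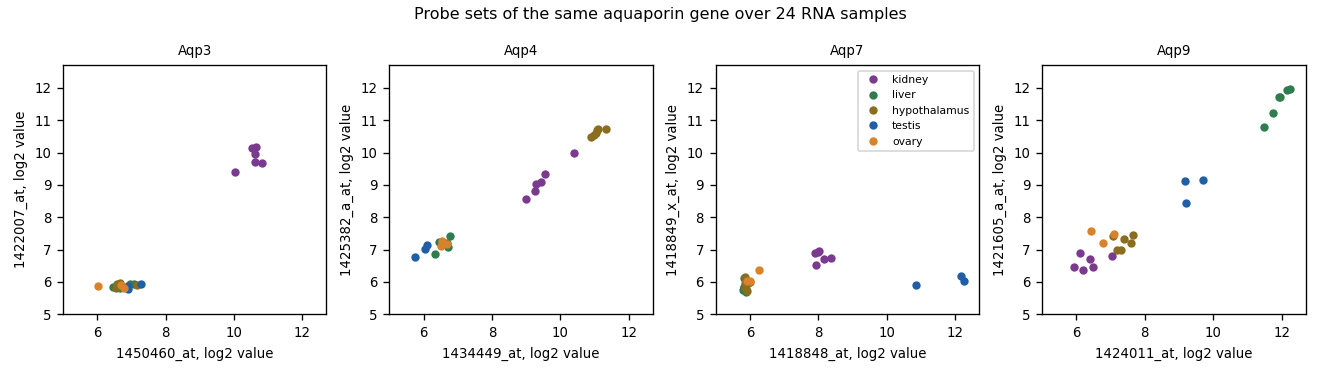
Log2 values of a second probe set against the brightest probe set of Aqp3, Aqp4, Aqp7 and Aqp9, with 1 point per RNA sample coloured by tissue. The pairs of Aqp3, Aqp4 and Aqp9 correlated at 0.987, 0.993 and 0.983, and that of Aqp7 at 0.332, with the testis points far to the right and at the bottom.

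Aqp8, a water and ammonia channel of hepatocytes, was highest in liver, at 2548, 2075 and 3184 in male liver, against 3491, 1560 and 3005 in female liver. It read 917, 667 and 922 in testis, against 303, 370 and 281 in ovary. Kidney and hypothalamus samples lay between 69.9 and 127, all under the 40th percentile level. The order was therefore liver, testis and ovary, with kidney and hypothalamus not different beyond their spread (log2 0.10, 95% interval -0.23 to 0.43, adjusted p = 0.592). With arrays centred on their medians, however, Aqp8 was called higher in kidney than in hypothalamus, dim as it was in both.

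The testis mean of Aqp8 was 2.63-fold that of ovary (836 ± 145.7 in testis, 318 ± 46.5 in ovary, SD, n = 3 each), a log2 difference of 1.26 ± 0.18 (adjusted p = 0.00017). The liver mean was 3.16-fold that of testis (log2 1.57 ± 0.20, adjusted p = 1.97e-07).

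The liver RNA carried transcripts of the exocrine pancreas, a tissue whose acinar cells also express Aqp8. All 8 markers on the array were above the 40th percentile level in every liver sample, and their sum was 39444, 9919 and 47687 in male liver samples 1 to 3, against 39368, 17276 and 17120 in female liver. The highest sum in any other group was 5254, in female kidney. Male liver sample 2 was lowest in both Aqp8 and the pancreatic sum among males. In females sample 1 was highest in both, while sample 3 was near it in Aqp8 and near sample 2 in the sum. The part of pancreatic RNA in the Aqp8 level of liver was not tested.

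**Figure D3:**
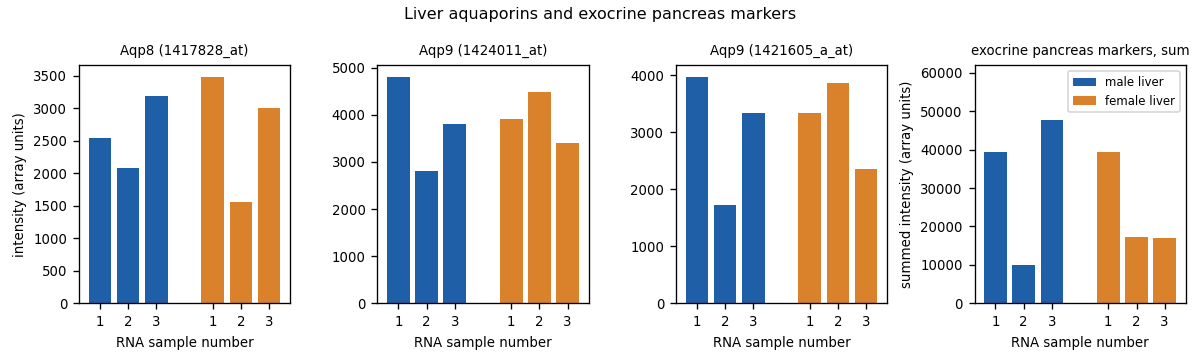
Intensity of Aqp8 and of both Aqp9 probe sets, and summed intensity of the 8 exocrine pancreas markers, in each liver RNA sample (bars, array units; blue male, orange female, numbered 1 to 3). The marker sum ran from 9919 to 47687 in males and from 17120 to 39368 in females, while Aqp8 ran from 2075 to 3184 in males and from 1560 to 3491 in females.

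Aqp9, the glycerol channel of hepatocytes, was also highest in liver, with testis second. Probe set 1424011_at read 4811, 2811 and 3797 in male liver, against 3900, 4492 and 3408 in female liver, and 586, 527 and 804 in testis against 67.1, 37.8 and 91.3 in ovary. Probe set 1421605_a_at read 3976, 1719 and 3329 in male liver, against 3334, 3868 and 2361 in female liver, and 296, 514 and 518 in testis against 100.3, 145 and 129 in ovary. Male liver sample 2 was the lowest liver sample on both probe sets, and no kidney, hypothalamus or ovary sample rose above the 40th percentile level.

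Testis was at least 4.02-fold above ovary for Aqp9 on 1424011_at and at least 2.78-fold on 1421605_a_at (log2 differences of 2.59 ± 0.22 and 1.48 ± 0.22, adjusted p = 6.21e-06 and 0.000212). Both probe sets passed the filter of that fit through testis alone. The direction of these calls was fixed by the filter, and nothing is read from their p-values. Liver was 6.06-fold above testis on 1424011_at and 7-fold on 1421605_a_at (log2 2.55 ± 0.19 and 2.66 ± 0.22, adjusted p = 2.13e-11 and 2.4e-10). Liver was at least 30.5-fold above kidney on 1424011_at (log2 kidney minus liver of -5.55 ± 0.15, adjusted p = 4.51e-19).

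The series title sets out to compare transcription between the sexes, and none of the aquaporins was called in that comparison. In kidney 0 of 8 tested probe sets were called, where 0.232% of all 13802 tested were. In liver it was 0 of 5, where 0.0507% of 13799 were called, and in hypothalamus 0 of 2, where 0.0509% of 13758 were. With the sample number as a block it was again 0 in each, where 1.04%, 0.0797% and 0.0654% of all tested were called in kidney, liver and hypothalamus. Without the block, no member reached an unadjusted p under 0.05, which 4.86% of all tested did in kidney, 1.96% in liver and 2.27% in hypothalamus, with limma as the only tool run.

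The differences and their 95% intervals, here without a block for the sample number, give the size that remained possible. In liver the interval of Aqp1 ran from -0.39 to 0.36, that of Aqp8 from -0.68 to 0.70 and that of Aqp9 on 1424011_at from -0.56 to 0.41 (log2, male minus female). In hypothalamus Aqp4 on 1434449_at had an interval from -0.21 to 0.33. The intervals of the hypothalamus were the narrowest of the Aqp4 intervals, that of kidney on the same probe set running from -0.87 to 0.62.

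**Figure D4:**
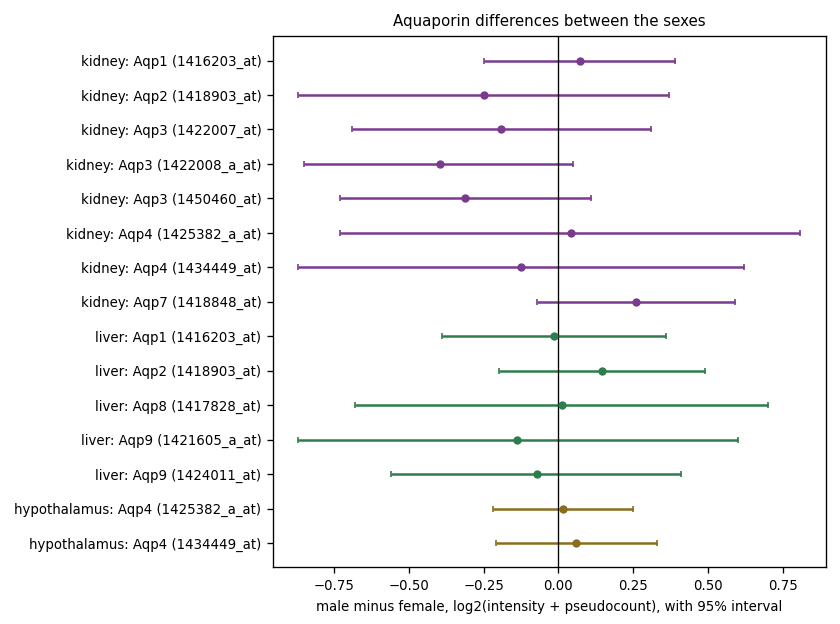
Male minus female difference of log2(intensity + pseudocount) for the 15 probe set and tissue pairs tested, with 95% intervals from limma (3 RNA samples a sex). Every interval, taken without a block, takes in 0, and the points lie between -0.396 (Aqp3, probe set 1422008_a_at, kidney) and 0.26 (Aqp7, kidney).

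In kidney, 2 of 8 tested probe sets had non-overlapping sexes, which 9.49% of all tested probe sets also had. Aqp3 on 1450460_at averaged 1321 ± 269.9 in male and 1630 ± 130 in female kidney, a log2 difference of -0.31 ± 0.18 (adjusted p = 1). The other Aqp3 probe sets gave -0.40 ± 0.20 and -0.19 ± 0.22 with overlapping sexes. Aqp7 averaged 247 ± 35.8 in male and 197 ± 7.41 in female kidney, a log2 difference of 0.26 ± 0.15 (adjusted p = 1). Aqp2 averaged 3201 ± 914.6 in male and 3796 ± 1136 in female kidney (log2 -0.25 ± 0.27).

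Taken by sample number, 6 of 8 kidney probe sets had the same sign in all 3 pairs, as 34.2% of all tested had. Aqp1 and Aqp7 were higher in the male sample of each pair, and Aqp2 and the 3 Aqp3 probe sets, which stand for 1 gene, were lower in it. With the number as a block, the log2 difference of Aqp2 was -0.25 ± 0.11 (95% interval -0.51 to 0.01, adjusted p = 0.432) and that of Aqp1 0.07 ± 0.11 (interval -0.18 to 0.32, adjusted p = 0.851). Aqp7 gave 0.26 ± 0.12 (interval -0.02 to 0.54, adjusted p = 0.436). Aqp3 gave -0.40 ± 0.12 on 1422008_a_at (interval -0.67 to -0.12, adjusted p = 0.232) and -0.31 ± 0.17 on 1450460_at (interval -0.69 to 0.07, adjusted p = 0.516). Of the 8, only 1422008_a_at reached an unadjusted p under 0.05 in the blocked limma fit, which 12.4% of all tested reached, and none was called. In liver 0 of 5 and in hypothalamus 0 of 2 probe sets had the same sign in all pairs, where 24.7% and 25.3% of all tested had.

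For Aqp4 in kidney the male minus female difference had no stable sign. It was -0.13 ± 0.33 on 1434449_at with all samples and 0.30 without female sample 1. On 1425382_a_at it was 0.04 ± 0.34 with all samples, 0.48 without female sample 1, and as low as -0.24 with another sample left out. There was no call in any of these cases.

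**Figure D5:**
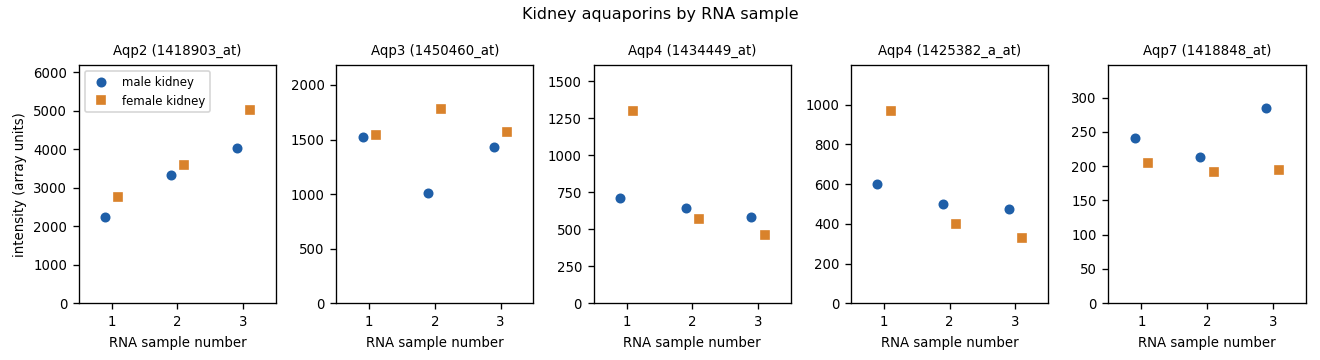
Intensity (array units, from 0) of Aqp2, Aqp3, Aqp4 and Aqp7 probe sets in the 3 RNA samples of male kidney (circles, blue) and female kidney (squares, orange). Aqp2 was lowest in sample 1 and highest in sample 3 of both sexes, Aqp4 was highest in sample 1 of both, at 1300 on 1434449_at in the female sample, and the sexes did not overlap for Aqp3 on 1450460_at and for Aqp7.

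The samples of the same number deviated together between the sexes, and the sum of the 6 principal cell markers in kidney was 4023, 4047 and 4965 in males, against 4973, 5533 and 5365 in females. The sum of the 4 intercalated cell markers was 2411, 2198 and 2011 in males, against 3665, 2652 and 2733 in females. The thick ascending limb sum was 14700, 16123 and 14858 in males, against 16138, 18326 and 16286 in females. In these 3 lists every male sum lay below every female sum, but barely so for principal cells (4965 against 4973) and the thick ascending limb (16123 against 16138). Of all single probe sets tested in kidney, 5.27% had every male sample below every female sample, and no such share was taken for sums. The proximal tubule sum went mostly the other way, with 73365, 64674 and 75966 in males, against 57583, 58349 and 68039 in females. It adds the intensities of 8 markers, Kap and Slc7a13 among them, and cannot tell more cells from more of a transcript per cell. The part of cell makeup in the aquaporin values was not tested.

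Whether the sex difference itself differed between tissues was tested in a joint fit. Of 11 tested aquaporin probe sets 0 were called in each of the 3 pairs of tissues, where 0.237% (kidney with liver), 0.207% (kidney with hypothalamus) and 0.0178% (liver with hypothalamus) of 16868 were. A single member reached an unadjusted p under 0.05, Aqp3 on 1450460_at, at -0.63 ± 0.23 for kidney minus liver and -0.59 ± 0.23 for kidney minus hypothalamus (limma adjusted p = 0.779 and 1). Of all tested, 4.8%, 3.76% and 1.78% reached it in the 3 pairs in the same order.

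Between testis and ovary, 5 of 6 tested aquaporin probe sets were called, where 70.6% of all 14921 tested were. Aqp7, Aqp8 and both Aqp9 probe sets were higher in testis, 4 in all, as 24.9% of all tested were, and Aqp1 was lower, as 45.7% were. Aqp7 and both Aqp9 probe sets passed the filter of this fit through testis alone, so their direction was fixed by the filter. All tested probe sets had a median log2 difference of -0.35 between testis and ovary, so differences there are to be read relative to it.

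Between tissues, 11 aquaporin probe sets were tested among 18056. Kidney against liver gave 8 higher and 3 lower, where 31.5% of all tested were higher and 22.1% lower, 53.6% in all. Kidney against hypothalamus gave 6 higher and 4 lower, where 29% and 43.5% were, 72.5% in all. Kidney against testis gave 7 higher and 4 lower (39.8% and 30.8%, 70.6% in all). Kidney against ovary gave 8 higher and 2 lower (18.3% and 38.5%, 56.8% in all). The 3 Aqp3 probe sets, which stand for 1 gene, passed the filter on dim signal through kidney alone, so their place among the higher calls was fixed by the filter, and nothing is read from the balance of higher and lower.

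Liver against hypothalamus gave 4 higher and 2 lower (28.4% and 47.8%, 76.2% in all). Liver against testis gave 5 higher and 2 lower (37.5% and 34.5%, 72% in all), and liver against ovary gave 4 higher and 1 lower (19.1% and 45%, 64.1% in all). Hypothalamus against testis gave 2 higher and 5 lower (46.7% and 27.8%, 74.5% in all). Hypothalamus against ovary gave 3 higher and 3 lower (29.9% and 32%, 62% in all). With arrays centred on their medians, kidney against hypothalamus gave 7 higher and 3 lower, liver against hypothalamus gave 8 higher and 2 lower, liver against ovary 7 and 1, and hypothalamus against testis 2 and 9. These comparisons share samples, and the calls took in at least 53.6% of the probe sets tested in each.

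Of the 73 calls between tissues, 68 had a group with the probe set above the 40th percentile level, and 5 were dim on both sides. The dim calls were Aqp9 in kidney and hypothalamus on both probe sets, Aqp9 on 1421605_a_at in kidney and ovary, Aqp4 on 1434449_at in liver and testis, and Aqp9 on 1424011_at in hypothalamus and ovary. Their means lay between 15.2 and 125 and no fold is given for them. Aqp9 on 1424011_at in kidney and ovary missed the threshold (adjusted p = 0.0615) and passed it with the sample number as a block (adjusted p = 0.0449), and it too was dim in both tissues.

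Genes of the pathways around these channels were described from lists. Of 16 genes of vasopressin signalling to Aqp2, 14 were on the array and 13 tested in kidney against liver, with 6 called higher and 1 lower, where 31.5% and 22.1% of all tested were. Their median log2 difference was 0.365, against 0.056 for all tested. In kidney against hypothalamus 5 were higher and 8 lower (29% and 43.5% of all tested). In kidney against testis it was 6 and 1 (39.8% and 30.8%), and in kidney against ovary 2 and 3 (18.3% and 38.5%). The summed level of the 14 genes was 12480 to 13210 over both kidney groups, against 21500 to 23080 over both hypothalamus groups. Avpr2, the V2 receptor of the principal cell, averaged 525 ± 92 in male and 602 ± 65 in female kidney, with group means of 54 to 94 elsewhere, and rose by 2.65 ± 0.14 (log2) in kidney relative to liver. Adcy6, an adenylyl cyclase, rose by 1.28 ± 0.15 and Vamp3, a vesicle fusion protein, by 0.81 ± 0.12. Avpr1a, the V1a receptor of hepatocytes, fell by 1.21 on the log2 scale in kidney relative to liver. Outside kidney the Avpr2 group means were under the lowest 40th percentile level (106.8), so its direction was largely fixed by the filter. Nothing is read from the counts of this list or its median.

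The 10 measured genes of salt and urea transport in the distal nephron were all called higher in kidney than in liver, with a median log2 difference of 3.07, where 31.5% of all tested were higher and their median was 0.056. In each kidney group 9 of the 10 were above the 40th percentile level in all samples, against 1 in each liver group. The list names kidney genes, so these calls follow from its choice and the filter, and nothing is read from their share. The 4 of lowest p were Umod, the urinary protein of the thick ascending limb, the sodium chloride cotransporters Slc12a1 and Slc12a3, and the sodium channel subunit Scnn1g. Umod averaged 10096 ± 967.7 in kidney, against 37.7 ± 9.68 in liver (SD, n = 6 each). Slc12a3 averaged 2850 ± 517.5 in kidney and 32.8 ± 10.2 in liver. Umod, Slc12a3 and Scnn1g were under the 40th percentile level in every liver sample and Slc12a1 in all but 1, so their differences are not ranked. Between the sexes 9 of these genes were tested and 0 called in kidney, where 0.232% of all tested were, with a median of -0.32 against -0.011 for all tested. The lowest p-values were those of Slc12a3 (-0.43 ± 0.14, adjusted p = 0.764) and of Hsd11b2, the enzyme that shields the mineralocorticoid receptor from glucocorticoids (-0.43 ± 0.16, adjusted p = 0.834).

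Around Aqp4, 10 of 11 genes of the complex that anchors the channel at astrocyte endfeet were tested. In kidney against hypothalamus 1 was called higher and 6 lower (29% and 43.5% of all tested), and in liver against hypothalamus 1 and 8 (28.4% and 47.8%). Kcnj10, the potassium channel of endfeet, averaged 2065 ± 233 in male and 1919 ± 201 in female hypothalamus, and fell by 2.39 in kidney and by 3.28 in liver on the log2 scale. Dtna, a dystrobrevin, had log2 differences of -2.36 for kidney minus hypothalamus and -2.28 for liver minus hypothalamus, and Dmd, dystrophin, had -1.63 and -1.15 in the same contrasts. Utrn, utrophin, fell by 0.48 in kidney and by 1.38 in liver.

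Around Aqp7, 7 of 9 genes of glycerol handling were tested in testis against ovary, with 4 called higher and 2 lower (24.9% and 45.7% of all tested). The median was 0.60, against -0.35 for all tested. Gk2, a glycerol kinase of germ cells, averaged 6786 ± 261 in testis, against 4 ± 1 in ovary. It passed the filter of this fit through testis alone, so its direction was fixed by the filter. Nothing is read from the counts of this list or its median. Gpd2, the mitochondrial glycerol phosphate dehydrogenase, averaged 6448 ± 1935 in testis, against 149 ± 37 in ovary (log2 5.02 ± 0.25). Lipe, the hormone-sensitive lipase, rose by 1.08 ± 0.17, and Gpam, which attaches the first fatty acid to glycerol phosphate, fell by 3.09 on the log2 scale in testis relative to ovary.

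The genes whose log2 values followed each aquaporin most closely over the 24 RNA samples were sought among 10713 genes. For Aqp1 they were Llgl2 (r = 0.9885), 2610528J11Rik (0.9871) and the ascorbate transporter Slc23a1 (0.9839). For Aqp2 they were Hoxb9 (0.9785), the carnitine transporter Slc22a5 (0.9657) and the renal dipeptidase Dpep1 (0.9652), and for Aqp3 the amino acid transporter subunit Slc7a9 (0.9873), Slc22a19 (0.9872) and the brush border protease Mep1b (0.9867). For Aqp4 they were Mgat3 (0.9845), Mapt (0.9829) and Ank3 (0.982), and for Aqp7 Pgam2 (0.988), Zswim7 (0.9837) and Smim8 (0.9723). For Aqp8 they were Aox3 (0.9766), C8b (0.9652) and Qsox1 (0.9586), and for Aqp9 C8b (0.9765), Insig2 (0.9744) and Adh4 (0.9716). These correlations are a description, carried mainly by the contrast between tissues. The number of genes with r above 0.95 ran from 6 for Aqp8 to 74 for Aqp3.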

How the data were processed

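The authors deposited intensities, not log-transformed, with a value for each probe set of an array. Software and probe summary: not given in the sources used here. Their 2% trimmed mean lay between 500.11 and 500.23 on all arrays. The 64 controls were left out. Of the remaining 22626 probe sets, 20380 had 1 gene symbol, 691 several and 1555 none in the platform annotation, and the 13 aquaporin probe sets were matched by Entrez ID to RefSeq genes of GRCm38.p6.

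A common trimmed mean was set for all arrays, log2 was taken after adding 48.1 (the 20th percentile over the whole table), and the duplicate arrays of each RNA sample were averaged. No 2 arrays were identical. Groups were taken from sample titles. Sexes, and testis with ovary, were compared in fits of 6 RNA samples, tissues in 1 fit of 24 with both sexes weighted equally, and sex by tissue in 1 fit of 18, all with limma 3.58.1 in R 4.3.3 (lmFit, eBayes) and adjustment over all probe sets tested. Figures used matplotlib 3.10.9 in Python 3.11.15. The number of arrays limits the precision.

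Samples of the same number correlated in their deviations from the group means at 0.535, 0.139 and 0.482 (male with female liver), at 0.591, 0.426 and 0.627 (kidney) and at 0.392, 0.101 and 0.327 (hypothalamus), all above 0.1, so the numbers were taken to pair the samples there, a hint from the data for which the labels give no reason. The highest correlation between different numbers was 0.287, -0.118 and 0.0908 in these tissues, so pair 2 of liver was below it and pair 2 of hypothalamus close to it. Kidney with liver gave 0.397, 0.363 and 0.197 for the same number (0.0643 at most otherwise), and testis with ovary 0.0416, 0.146 and 0.0423. Blocked values stand beside a result where they change the call. With tissue and number as a random block, the correlation within a block was 0.445. The tissue contrasts given here have no such block, so the SE and p-values of those with kidney, liver or hypothalamus overstate the replication.

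Every aquaporin probe set is named, called or not. Other genes named are up to 4 of lowest p from each pathway list, markers beside an aquaporin, and the 3 genes of highest correlation with the brightest probe set of each aquaporin that passed the filter. Members and lists were chosen with earlier results of these data known. On simulated data with 50 changed probe sets of each size, 2-fold changes were called in 82% (kidney sexes, 13802 probe sets), 80% (testis against ovary, 14921) and 98% (kidney against liver, 18056), and 1.5-fold changes in 18%, 6% and 68%. In the data themselves, 70.6% of tested probe sets were called in testis against ovary and 53.6% in kidney against liver. The simulated shares hold only for few changed probe sets, and they were not split by brightness. Whether they hold for samples that deviate together was not tested. Alternatives tried were other pseudocounts, filters, normalizations, variance models, single arrays, blocks, other sample sets in the fit and leaving out each RNA sample.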

Additional observations from a re-analysis of the deposited data

How the results depend on the processing

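Of 78 called differences of single probe sets, 74 kept direction and call under every alternative tried that tested them. The exceptions were dim on both sides. Aqp9 on 1421605_a_at in kidney against hypothalamus lost its call at 4 times the pseudocount, under quantile normalization and under median centring (adjusted p = 0.0894, 0.104 and 0.134). At 4 times the pseudocount, Aqp9 on 1421605_a_at in kidney against ovary (0.0775), Aqp4 on 1434449_at in liver against testis (0.215) and Aqp9 on 1424011_at in hypothalamus against ovary (0.068) lost theirs, the last also on the technical replicate arrays alone (0.306) and without ovary sample 2 (0.0911). Median centring moved 3 counts of called aquaporins by over 1.5 times. It gave 10 calls in liver against hypothalamus (6 before), 8 in liver against ovary (5 before) and 11 in hypothalamus against testis (7 before). It shifted the median of all tested to 0.146, 0.071 and -0.135 in these, against -0.238, -0.264 and 0.283 before, and the share of higher calls among all calls to 56.5%, 54.1% and 45.1%, against 37.2%, 29.8% and 62.7%. It moved that share by over 10 points also in kidney against hypothalamus (58.5%, against 40% before), kidney against ovary (54.8%, against 32.2%) and testis against ovary (50.9%, against 35.3%), where the aquaporin counts were 10, 10 and 5. Testis against ovary gave 2 to 5 calls when an RNA sample was left out. The 2 calls came without testis sample 1, 2 or 3, when 3 aquaporin probe sets passed the filter on dim probe sets. With the filter of all 6 samples kept, an alternative chosen after seeing the data, 5 were called in each case. With the replicate number as a block, 0, 0 and 0 aquaporins were called in liver, kidney and hypothalamus between the sexes and 5 between testis and ovary, as without it, although 144 of all kidney probe sets were called with the block against 32 without, and the block changed no call of an aquaporin besides that of Aqp9 in kidney against ovary.

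Quantile normalization gave a median level of 89.85 over the 104 group means and moved 20 of them by over 1 SD and 0 by over 1.5-fold, and each of the 13 probe sets kept its highest tissue. Uncalled sex differences near 0 changed sign. With first arrays only, Aqp1 in liver was at 0.04 and Aqp8 in liver at -0.034. Leaving out 1 RNA sample, male minus female in liver ranged from -0.164 to 0.112 for Aqp1, from -0.332 to 0.237 for Aqp8, from -0.377 to 0.217 for Aqp9 on 1421605_a_at and from -0.257 to 0.128 on 1424011_at. In kidney it ranged from -0.237 to 0.476 for Aqp4 on 1425382_a_at and from -0.407 to 0.295 on 1434449_at, and in hypothalamus from -0.038 to 0.098 and from -0.055 to 0.163. The cause was not tested.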
